A study of Mus musculus with 12 samples.

Results

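The 51 genes described here encode the machinery of mitosis and chromosome segregation, from the cyclins that start mitosis to the proteins that separate the daughter cells. They were taken from a list of named genes and kept if their mean level in the deposited table was at least 3. This limit used no difference between groups, but the list was made with earlier results of these data known. All 51 listed genes passed this limit, out of 11536 genes that passed it and 41444 in the table, and each of the 51 had a mean of at least 7. The values are rlog values, regularized log2 read counts that the authors scaled for library size, so that a difference of 1 is a doubling. They are not divided by transcript length, and levels are therefore compared between samples and not between genes.

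The cells were mouse pre-B cells from bone marrow with the genotype *Ctnnb1* fl/fl, grown with IL7 for 2 weeks, transformed with the *BCR-ABL1* oncogene by retrovirus and then kept without IL7. Both groups used here carried the ERT2 vector, which has no Cre, so their floxed β-catenin gene was left intact, and both received 4-OHT, a tamoxifen metabolite, at 1 µM for 2 days. The treated group also received LY2090314, an inhibitor of the kinase GSK3β, at 40 nM for 1 day by the sample labels, and the control group did not. The study's text gives a shorter exposure for this experiment, and which time applies was not settled here. Each group had 3 samples, which the study describes as 3 mice. The column names of treated samples A and B begin with the same number, and the labels do not say what it stands for. The labels also do not say which samples came from separate cultures, so p-values measure the spread between these samples. Both groups are cultures transformed by an oncogene, and a group of normal B cell precursors was not analysed here. The 6 columns named for Cre could not be assigned to their groups and were not used.

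Cells enter mitosis when cyclin-dependent kinase 1, activated by cyclins A and B and by CDC25 phosphatases, phosphorylates many proteins at once. Kinetochores then attach chromosomes to the spindle, a checkpoint holds back the anaphase-promoting complex until all are attached, and the complex finally releases separase, which cuts the cohesin that holds sister chromatids together. Most of these genes are transcribed late in the cell cycle, and many of their promoters are bound by the DREAM complex or by the B-MYB, MuvB and FOXM1 activators. In RNA from whole cultures, a smaller share of cells in mitosis and less mRNA per cell cannot be told apart.

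Most members were lower after LY2090314, by small amounts. In the limma fit over all genes, 35 of 51 members (68.6%) fell and 2 rose at an adjusted p under 0.05, against 25.3% of all genes tested that fell and 24.8% that rose (50.1% in either direction). The difference was below 0 for 48 members, and for 48.6% of all genes tested. The median difference of the members was −0.21, against 0.01 over all genes. Among the 8502 genes with a mean of at least 7, the level range of the members, 28.8% fell and 25.5% rose. Treated samples lay entirely below control samples for 39 members and entirely above for 3, against 29.5% and 29.1% of all genes tested (58.6% in either direction). Single members ranged from −0.66 for *Ccna2* to 1.53 for *Cdc25b*, the one member that differed by more than 1. With 3 samples against 3, an exact permutation test of a single gene cannot give a p below 0.10.

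**Figure D1:**
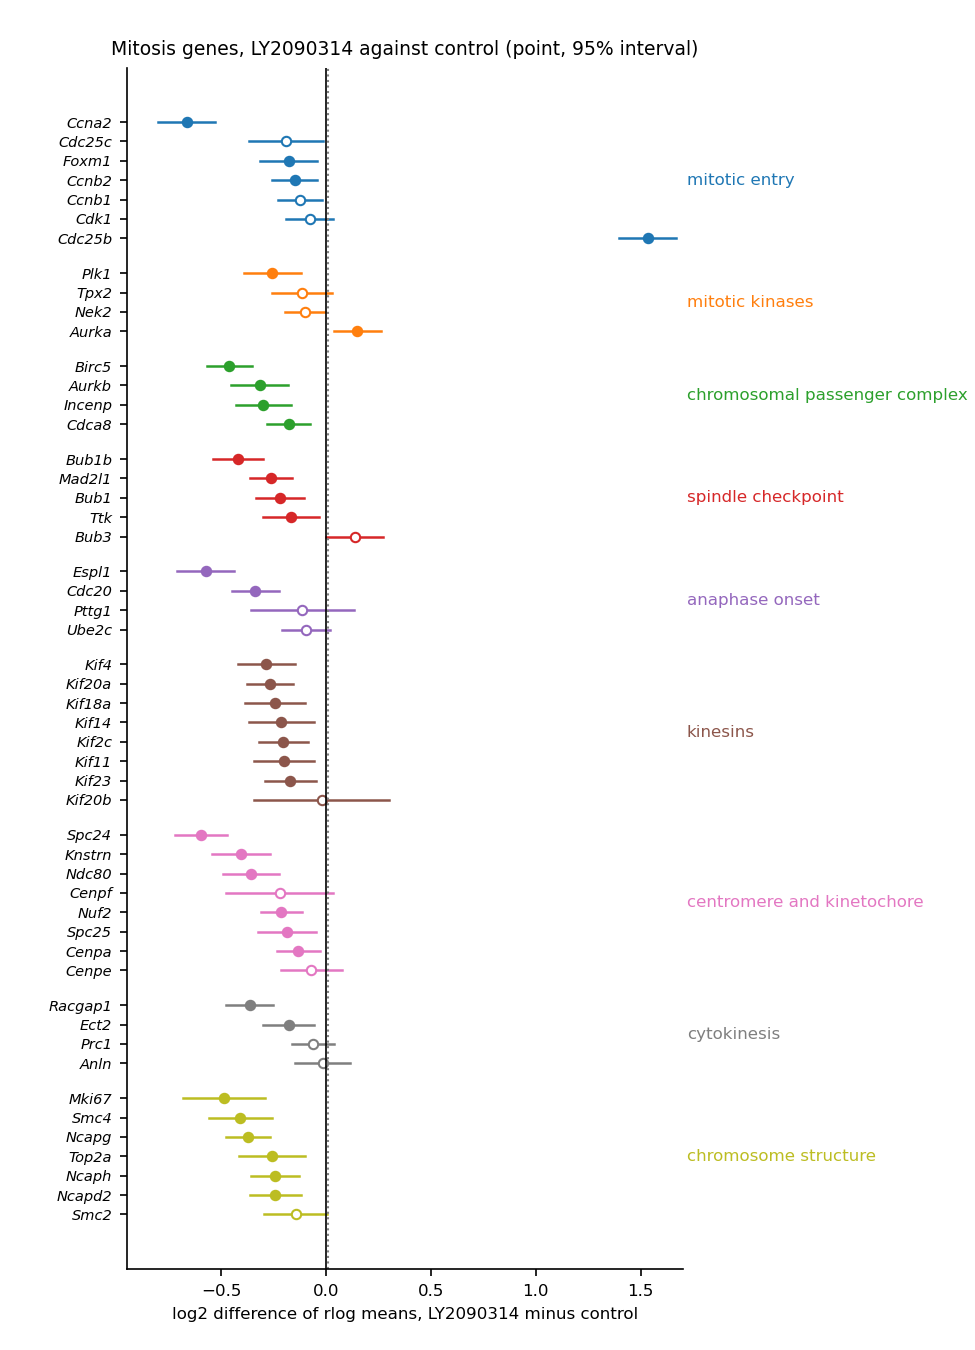
Log2 difference of the mean rlog values (x axis, LY2090314 minus control) for each of the 51 members (y axis), grouped by role. Points are differences of 3 treated against 3 control samples, lines are 95% intervals, filled points passed an adjusted p of 0.05, and the dotted line is the median of all genes tested. Of the 51 points 48 lie to the left of 0, none below −0.66, and *Cdc25b* stands alone at 1.53.

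**Figure D2:**
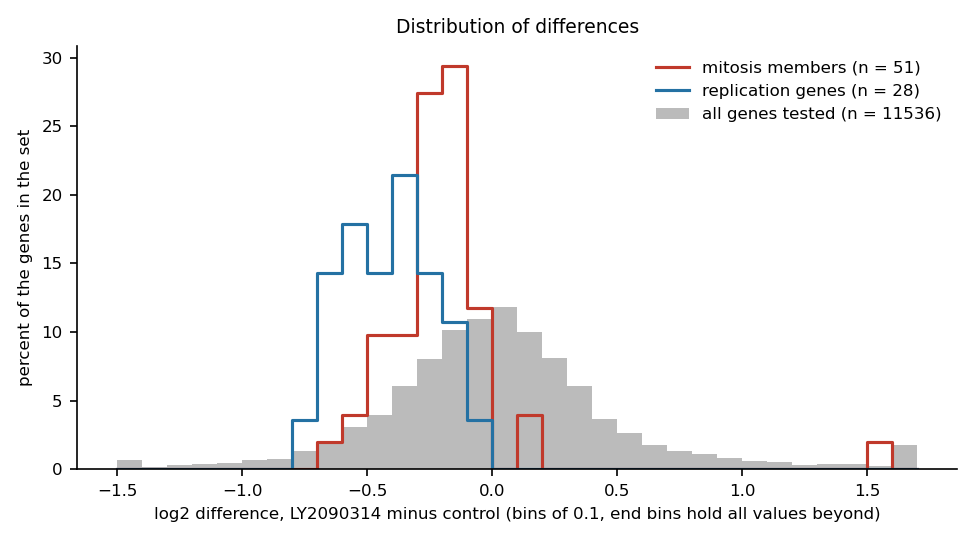
Distribution of the log2 difference (x axis, LY2090314 minus control, in bins of 0.1) as a percent of the genes in each set (y axis), for all 11536 genes tested (grey bars), the 51 members (red line) and 28 DNA replication genes (blue line). All genes spread about evenly around 0, while both lines peak to the left of it.

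The promoters of the members share sequence features, which were not used to choose them. RefSeq promoter windows of mouse build GRCm38, from 250 bases before the start of a transcript to 50 after it, were given for 42 members, in 45 windows. The cell cycle genes homology region, or CHR, is the site that the MuvB core of the DREAM complex binds, and its usual letters are TTTGAA. These letters, on either strand, were in 33 of the 45 member windows (73.3%), against 17.9% of all 32851 windows. The rarer form TTCGAA was in 4 windows (8.89%), against 1.56% of all. A CCAAT box, the site of the factor NF-Y, was in 34 (75.6%), against 37.4%, and a window with both a CHR and a CCAAT box occurred in 31 (68.9%), against 7.52%. The palindromic E-box CACGTG, a MYC and MAX site, was in 4 windows (8.89%), against 7.15%, and TTTCGCGC, an E2F site, in 1 (2.22%), against 0.323%. CTTTGA, the core of a TCF and LEF site, was in 9 (20.0%), against 16.0%. CTTTGA shares the letters TTTGA with the CHR and was added after the values were known. Both CHR and CCAAT box were found in 20 of the 28 members with a window that fell in 6 of the 12 that did not pass and in both that rose, *Aurka* and *Cdc25b*. Counted by gene, TTTGAA was in 71.4% of the 42 members with a window, against 20.2% of 27025 genes. The pair of CHR and CCAAT box was in 66.7%, against 8.61%. The windows of all genes were not limited to the genes tested, and 3 members had more than 1 window. Matches of letters are a description and were not tested as sites.

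The 250 bases before the start are shown for 4 members that fell and for *Cdc25b*, which rose, as examples of both directions of change. They run 5′ to 3′ on the strand of the gene and end at the base before the RefSeq start, with capitals marking each CHR, CCAAT box or CTTTGA on either strand.
*Cdc20*, chr4:118437344-118437593, minus strand: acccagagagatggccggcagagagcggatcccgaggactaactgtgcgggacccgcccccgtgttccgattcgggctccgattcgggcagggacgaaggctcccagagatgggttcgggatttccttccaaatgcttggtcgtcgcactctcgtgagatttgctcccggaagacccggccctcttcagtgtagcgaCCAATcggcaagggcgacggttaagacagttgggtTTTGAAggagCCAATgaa
*Kif11*, chr19:37376132-37376381, plus strand: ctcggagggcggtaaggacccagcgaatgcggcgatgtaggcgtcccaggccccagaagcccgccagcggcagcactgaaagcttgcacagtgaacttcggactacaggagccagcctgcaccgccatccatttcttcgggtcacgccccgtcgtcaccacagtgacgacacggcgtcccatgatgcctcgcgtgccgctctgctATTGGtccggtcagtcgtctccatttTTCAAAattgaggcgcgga
*Top2a*, chr11:99024190-99024439, minus strand: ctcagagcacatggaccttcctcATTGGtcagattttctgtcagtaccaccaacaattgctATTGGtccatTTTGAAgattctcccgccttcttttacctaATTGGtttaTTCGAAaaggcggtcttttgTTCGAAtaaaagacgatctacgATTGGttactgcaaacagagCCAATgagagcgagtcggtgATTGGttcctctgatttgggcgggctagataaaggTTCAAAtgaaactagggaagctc
*Bub1b*, chr2:118597961-118598210, plus strand: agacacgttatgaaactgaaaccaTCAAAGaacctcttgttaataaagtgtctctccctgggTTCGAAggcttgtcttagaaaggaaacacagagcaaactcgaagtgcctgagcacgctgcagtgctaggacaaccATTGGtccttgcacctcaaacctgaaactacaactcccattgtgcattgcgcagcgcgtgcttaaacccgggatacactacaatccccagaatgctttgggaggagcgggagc
*Cdc25b*, chr2:131186698-131186947, plus strand: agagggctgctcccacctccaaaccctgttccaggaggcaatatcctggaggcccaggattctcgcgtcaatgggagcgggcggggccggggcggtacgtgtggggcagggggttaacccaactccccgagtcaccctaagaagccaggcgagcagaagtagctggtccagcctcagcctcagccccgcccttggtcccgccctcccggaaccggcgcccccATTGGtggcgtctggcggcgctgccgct

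In *Cdc20* a TTTGAA began 18 bases before the start, between CCAAT boxes at 53 and 8 bases. *Kif11* had the same pair on the other strand, a CHR at 19 and a CCAAT box at 45 bases. *Top2a* held 6 CCAAT boxes and 4 CHR matches in this stretch. *Bub1b* had a TTCGAA at 188 and a CCAAT box at 113 bases. *Cdc25b* had a CCAAT box at 28 bases, no TTTGAA in its whole window, and a TTCGAA that began after the start.

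**Figure D3:**
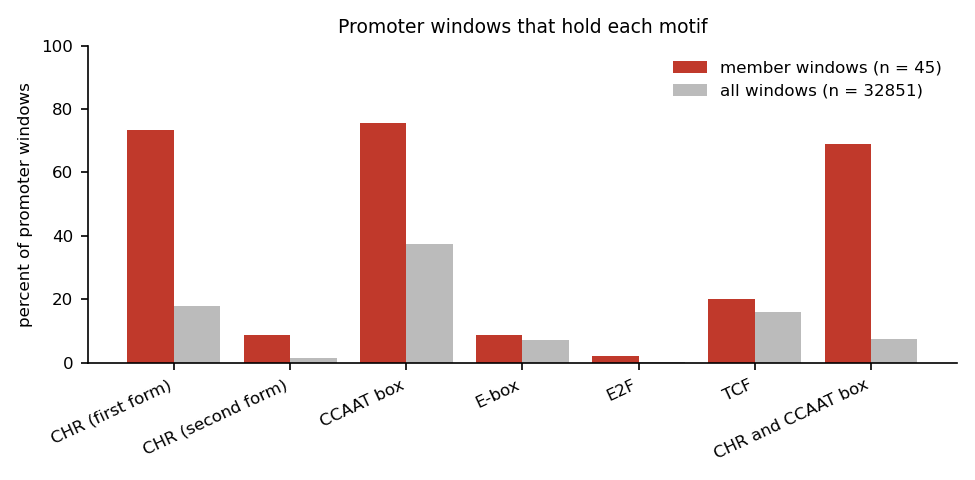
Percent of RefSeq promoter windows (y axis) that hold each motif on either strand (x axis), for the 45 windows of the members (red bars) and all 32851 windows (grey bars). The pair of CHR and CCAAT box is in 68.9% of member windows and in 7.52% of all windows, while the E-box is in 8.89% and 7.15%.

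Among the 7 members that govern mitotic entry, 3 fell (42.9%, against 25.3% of all genes tested), *Cdc25b* rose and 3 did not pass. *Ccna2* encodes cyclin A2, which drives S phase and the approach to mitosis. Its rlog value was 13.40, 13.33 and 13.40 in control samples 1 to 3 and 12.65, 12.68 and 12.81 in treated samples A to C. It fell by 0.66 (SE 0.059, 95% interval −0.80 to −0.53, adjusted p = 5.9e-05), a 1.58-fold lower level, and had the lowest difference of the members. *Ccna2* (ENSMUSG00000027715) lies on the minus strand of chromosome 3 of GRCm38, 36564865 to 36572150, and shares exon sequence with *Exosc9* on the other strand, which was at 10.47 in control and 10.25 in treated cells.

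*Cdc25b* encodes a phosphatase that removes inhibitory phosphates from CDK1 and so promotes mitotic entry. It was at 12.07, 12.00 and 12.15 in control samples and at 13.56, 13.58 and 13.68 in treated samples. The lowest treated sample lay 1.42 above the highest control sample. The rise of 1.53 (SE 0.058, 95% interval 1.399 to 1.669, adjusted p = 6.9e-07) is a 2.90-fold higher level, and 218 of the 11536 genes tested had a larger difference. *Cdc25b* (ENSMUSG00000027330) is on the plus strand of chromosome 2, 131186949 to 131198497. An exon overlaps *Spef1* on the other strand, which rose by 0.41, from 6.87 to 7.28 (adjusted p = 0.046), levels far below those of *Cdc25b*. The related phosphatase gene *Cdc25c* was at 9.22, 9.31 and 9.36 in control and 8.99, 9.11 and 9.22 in treated samples. Its difference of −0.19 (95% interval −0.37 to −0.01) did not pass (adjusted p = 0.072), and passed without treated sample C (−0.25, adjusted p = 0.024).

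The cyclin B genes and *Cdk1*, whose products form the kinase that triggers mitosis, differed by 0.15 or less. *Ccnb1* was at 12.16, 12.14 and 12.21 in control samples and at 12.07, 12.06 and 12.00 in treated samples. The groups did not overlap, but the difference of −0.12 (95% interval −0.23 to −0.02) missed the threshold (adjusted p = 0.053). *Ccnb1* has processed pseudogenes of up to 99.22% identity, of which *Ccnb1-ps* was listed at 0.34 in both groups, and reads shared with such copies may have been split. *Cdk1* was at 11.37, 11.31 and 11.32 in control samples and at 11.20, 11.26 and 11.31 in treated samples. Its groups touched, and the difference was −0.08 (95% interval −0.19 to 0.03, adjusted p = 0.21). *Ccnb2* fell by 0.15, from 11.40 to 11.25 (adjusted p = 0.027).

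*Foxm1* encodes the transcription factor that, with B-MYB, activates many genes of this set. It was at 11.63, 11.59 and 11.69 in control samples and at 11.46, 11.55 and 11.36 in treated samples. The nearest samples of both groups were 0.04 apart, and the fall was 0.18 (SE 0.059, adjusted p = 0.036). *Ccnb2* missed the threshold without control sample 2 or 3 or treated sample A or B, with an adjusted p of up to 0.111. *Foxm1* missed it without each sample other than treated sample B, with an adjusted p of up to 0.102.

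**Figure D4:**
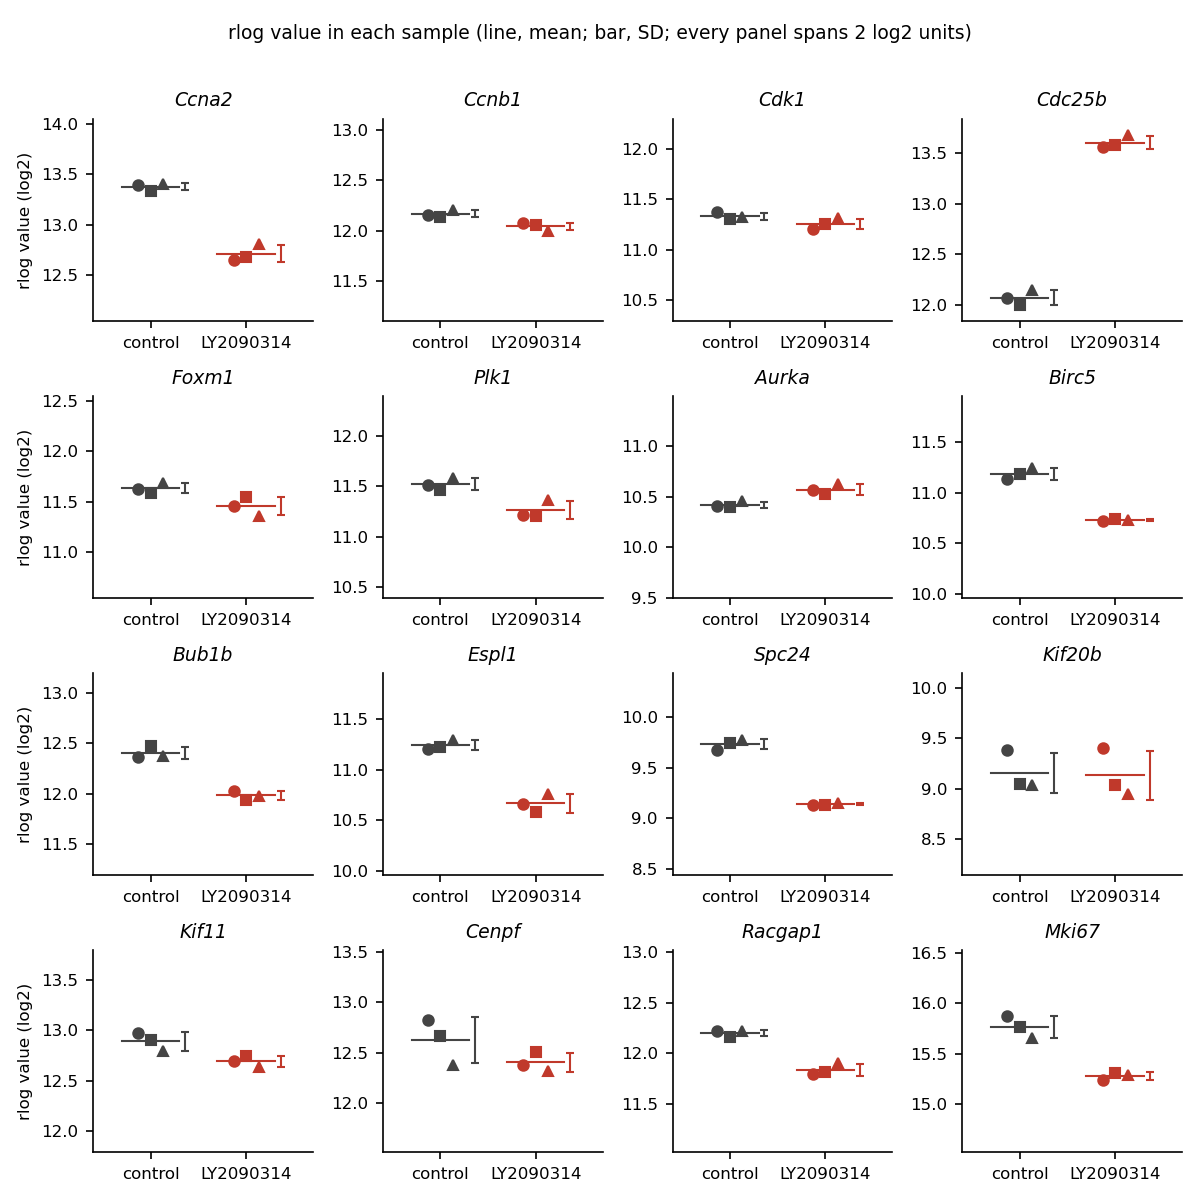
rlog value (y axis, log2) of 16 members in each of 3 control samples (grey) and 3 samples with LY2090314 (red). Circle, square and triangle are samples 1 to 3 or A to C, lines are means, bars are SD, and every panel spans the same range of 2 units. The groups are far apart for *Cdc25b*, *Ccna2* and *Spc24*, close together for *Cdk1* and *Aurka*, and mixed for *Kif20b* and *Cenpf*.

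Of the 4 members among mitotic kinases and their partners, 1 fell (25%), 1 rose (25%) and 2 did not pass. These shares were near the 25.3% and 24.8% of all genes tested that fell and rose. *Plk1*, the Polo kinase of centrosome maturation and spindle assembly, was at 11.51, 11.47 and 11.58 in control samples and at 11.22, 11.21 and 11.37 in treated samples. All treated samples were lower, by 0.26 on average (SE 0.059, adjusted p = 0.0082). *Aurka*, the Aurora kinase of centrosomes and spindle poles, was at 10.41, 10.40 and 10.45 in control samples and at 10.56, 10.52 and 10.62 in treated samples. The treated samples were all higher, and *Aurka* rose by 0.15 (95% interval 0.04 to 0.26, adjusted p = 0.034), which is 1.11-fold. This call is near the threshold. It was lost without control sample 1 or 2 or treated sample A or C (adjusted p up to 0.116). *Tpx2*, whose product activates Aurora A on the spindle, was at 12.41 ± 0.03 in control and 12.30 ± 0.11 (SD, n = 3) in treated cells. Its adjusted p was 0.17, and 0.012 without treated sample C. *Nek2*, a kinase that separates centrosomes, differed by −0.10 (95% interval −0.20 to −0.01, adjusted p = 0.075) with groups that did not overlap.

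The chromosomal passenger complex corrects faulty spindle attachments and guides cytokinesis. All 4 subunits of the complex fell (100%, against 25.3% of all genes tested). Its kinase gene *Aurkb* was at 11.57, 11.57 and 11.62 in control samples and at 11.17, 11.27 and 11.37 in treated samples. Its lowest control sample was 0.20 above its highest treated sample, and the fall was 0.32 (SE 0.059, adjusted p = 0.0029). *Birc5*, which encodes survivin, was at 11.13, 11.18 and 11.24 in control samples and at 10.71, 10.74 and 10.72 in treated samples. The treated values spanned 0.021, and the fall of 0.46 (SE 0.047, adjusted p = 0.00013) was the largest of the complex. *Cdca8*, which encodes borealin, was at 11.16, 11.15 and 11.16 in control samples and at 10.97, 10.94 and 11.02 in treated samples. It fell by 0.18 (adjusted p = 0.012), and without treated sample B the adjusted p was 0.053. *Incenp*, the scaffold, fell by 0.30, from 11.48 to 11.18 (adjusted p = 0.0030).

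Of the 5 spindle checkpoint members, 4 fell (80%, against 25.3% of all genes tested). *Bub1b*, whose product BUBR1 inhibits the anaphase-promoting complex, was at 12.36, 12.47 and 12.37 in control samples and at 12.03, 11.94 and 11.98 in treated samples. The groups were 0.33 apart, and the fall was 0.42 (SE 0.051, adjusted p = 0.00033). *Mad2l1*, which encodes the MAD2 inhibitor, fell by 0.26 (adjusted p = 0.0016), the kinase gene *Bub1* by 0.22 (adjusted p = 0.0074) and *Ttk*, the kinase gene that starts the checkpoint, by 0.17 (adjusted p = 0.042). *Ttk* passed in the fits that left out 1 sample only without treated sample C, with an adjusted p of up to 0.138 in the others. *Bub3*, whose product brings BUB1 and BUBR1 to kinetochores, was at 11.64, 11.67 and 11.70 in control samples and at 11.74, 11.76 and 11.92 in treated samples. Its treated samples were all higher, by 0.14 on average (95% interval 0.00 to 0.27), and it did not pass (adjusted p = 0.086).

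Among 4 members of anaphase onset, 2 fell (50%, against 25.3% of all genes tested) and 2 did not pass. *Espl1*, which encodes separase, was at 11.21, 11.22 and 11.30 in control samples and at 10.66, 10.58 and 10.76 in treated samples. It fell by 0.57 (SE 0.059, 95% interval −0.71 to −0.44, adjusted p = 0.00013), a 1.49-fold lower level. *Pttg1*, which encodes securin, the inhibitor of separase, was at 7.26, 7.19 and 7.27 in control samples and at 7.33, 7.0 and 7.05 in treated samples. Treated sample A was the highest of all 6, and the difference was −0.11 (95% interval −0.36 to 0.13, adjusted p = 0.40). *Cdc20*, the activator of the anaphase-promoting complex, was at 11.69, 11.67 and 11.78 in control samples and at 11.38, 11.35 and 11.40 in treated samples. It fell by 0.34 (SE 0.048, adjusted p = 0.00074). An exon of *Cdc20* overlaps *Elovl1* on the other strand, which fell by 0.62. *Ube2c*, the ubiquitin-conjugating enzyme of the same complex, was at 11.85, 11.88 and 11.88 in control samples and at 11.75, 11.72 and 11.85 in treated samples. Treated sample C reached the lowest control sample to 2 decimals, and the difference was −0.10 (95% interval −0.21 to 0.02, adjusted p = 0.14), with an adjusted p of 0.026 without that sample.

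Of 8 kinesins, motor proteins of the spindle and the midzone, 7 fell (87.5%, against 25.3% of all genes tested). *Kif4*, a chromokinesin that shortens midzone microtubules, was at 11.58, 11.54 and 11.53 in control samples and at 11.15, 11.33 and 11.32 in treated samples. Treated sample A was the lowest, and the fall was 0.28 (SE 0.058, adjusted p = 0.0046). *Kif11*, which encodes the motor EG5 that pushes spindle poles apart, was at 12.98, 12.90 and 12.80 in control samples and at 12.70, 12.75 and 12.63 in treated samples. The nearest samples were 0.05 apart, and the fall of 0.20 (adjusted p = 0.028) was lost without control sample 1 or 2 or treated sample A (adjusted p up to 0.0964). *Kif20b* was at 9.38, 9.05 and 9.04 in control samples and at 9.41, 9.04 and 8.95 in treated samples. It had the widest spread of the members in treated cells (SD 0.24), and its difference of −0.02 (95% interval −0.34 to 0.30, adjusted p = 0.91) had either sign when single samples were left out. *Kif20a* fell by 0.27, *Kif18a* by 0.24, *Kif14* by 0.21, *Kif2c* by 0.20 and *Kif23* by 0.17, with adjusted p between 0.0024 and 0.031. *Kif20a* shares exon sequence with *Cdc23* on the other strand, which fell by 0.29, from 10.63 to 10.34 (adjusted p = 0.011). Without single samples, the adjusted p reached 0.114 for *Kif14*, without control sample 1 or 2 or treated sample A or C, and 0.103 for *Kif23*, without any sample but treated sample C. That of *Kif18a* was 0.0503 without control sample 1.

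In the centromere and kinetochore group 6 of 8 members fell (75%, against 25.3% of all genes tested). These include the whole NDC80 complex, which binds the ends of microtubules. *Spc24* was at 9.68, 9.75 and 9.78 in control samples and at 9.13, 9.14 and 9.15 in treated samples. The nearest samples of both groups were 0.53 apart, and *Spc24* fell by 0.60 (SE 0.053, 95% interval −0.72 to −0.47, adjusted p = 6.3e-05), a 1.51-fold lower level. The other subunit genes fell by 0.36 for *Ndc80*, 0.21 for *Nuf2* and 0.19 for *Spc25*, with adjusted p of 0.0014, 0.0039 and 0.034. *Spc25* missed the threshold without control sample 1 or 3 or treated sample A or B (adjusted p up to 0.112). *Knstrn*, which encodes a kinetochore and spindle adaptor, fell by 0.41 (adjusted p = 0.00086).

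*Cenpa*, the histone H3 variant that marks centromeres, was at 11.42, 11.48 and 11.50 in control samples and at 11.35, 11.32 and 11.33 in treated samples. Its fall of 0.13 (SE 0.044, adjusted p = 0.037) was lost without control sample 2 or 3 or treated sample A or B (adjusted p up to 0.121), and after a correction for GC content and transcript length. *Cenpe*, a kinetochore motor, was at 12.38, 12.28 and 12.18 in control samples and at 12.18, 12.27 and 12.19 in treated samples, so the groups overlapped. Its difference was −0.07 (95% interval −0.21 to 0.07, adjusted p = 0.38). *Cenpf* was at 12.82, 12.67 and 12.38 in control samples and at 12.38, 12.51 and 12.32 in treated samples. Control sample 3 lay among the treated samples, and the difference was −0.22 (95% interval −0.48 to 0.04, adjusted p = 0.13). Without control sample 3 it was −0.34 (adjusted p = 0.012).

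In cytokinesis, 2 of 4 members fell (50%, against 25.3% of all genes tested). *Racgap1*, which with the kinesin KIF23 forms the centralspindlin complex, was at 12.22, 12.16 and 12.22 in control samples and at 11.79, 11.82 and 11.90 in treated samples. Every treated sample was at least 0.26 below every control sample, and the fall was 0.36 (SE 0.049, adjusted p = 0.00053). *Ect2*, the exchange factor that activates RhoA at the cleavage site, fell by 0.18 (adjusted p = 0.024), and missed the threshold without control sample 1 or 3 or treated sample A or B (adjusted p up to 0.0884). *Anln*, which encodes the actin-binding anillin, was at 10.51, 10.46 and 10.37 in control samples and at 10.42, 10.49 and 10.37 in treated samples. Its groups covered the same range, with a difference of −0.02 (95% interval −0.15 to 0.12, adjusted p = 0.83). *Prc1*, the crosslinker of midzone microtubules, was at 11.21 ± 0.03 in control and 11.15 ± 0.02 (SD, n = 3) in treated cells (adjusted p = 0.26).

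Of 7 members that shape chromosomes, 6 fell (85.7%, against 25.3% of all genes tested). *Mki67*, which encodes the proliferation antigen Ki-67 that coats mitotic chromosomes, was at 15.87, 15.77 and 15.66 in control samples and at 15.24, 15.31 and 15.29 in treated samples. It fell by 0.49 (SE 0.084, 95% interval −0.68 to −0.29, adjusted p = 0.0020), and the groups did not overlap. *Top2a*, the topoisomerase that untangles sister DNA, was at 15.16, 15.08 and 15.02 in control samples and at 14.83, 14.85 and 14.81 in treated samples. The groups were 0.17 apart, and the fall was 0.26 (SE 0.068, adjusted p = 0.015). That call was lost without control sample 1 or 2 or treated sample A (adjusted p up to 0.063), and with quantile normalization.

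Condensin is the ring that folds mitotic chromosomes, and 4 of its 5 subunits among the members fell, against 25.3% of all genes tested. *Smc4* fell by 0.41, *Ncapg* by 0.37, *Ncapd2* by 0.24 and *Ncaph* by 0.24, with adjusted p between 0.00034 and 0.0062. An exon of *Ncapg* overlaps *Lcorl* on the other strand, which rose by 0.59. The ATPase partner of SMC4, *Smc2*, was at 12.82, 12.71 and 12.62 in control samples and at 12.51, 12.65 and 12.55 in treated samples. Control sample 3 was below treated sample B, and the difference was −0.15 (95% interval −0.30 to 0.01, adjusted p = 0.10). Without control sample 3 the adjusted p was 0.0485.

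Over the members, replicates lay close together. The median SD was 0.046 in control and 0.057 in treated cells, and the largest were 0.23 for *Cenpf* in control and 0.24 for *Kif20b* in treated cells. Treated sample C was the highest of its group for 27 members (52.9%) and treated sample A the lowest for 24 (47.1%), against 43.0% and 33.2% of all genes tested. Control sample 2 was the highest for 6 members (11.8%), against 24.6% of all genes. For pairs of samples from the same group, the SD over the members of their difference was between 0.079 and 0.124, with 0.093 for treated samples A and B, and for pairs from different groups it was between 0.297 and 0.316. Over all genes tested, it was between 0.19 and 0.25 within groups and between 0.58 and 0.62 across groups. This SD leaves out any shift that the genes have in common. In all, 23 of the 35 falls and the rise of *Cdc25b* passed whichever sample was left out.

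A further 119 genes of mitosis that are no members were grouped by function. Of these, 54 fell (45.4%), 11 rose (9.24%) and 54 did not pass, against 25.3% and 24.8% of all genes tested that fell and rose. The median difference of the 119 genes was −0.15. In the wider group of mitotic entry, 7 of 12 fell (58.3%) and 2 rose (16.7%). *Mybl2*, which encodes B-MYB, the partner of MuvB that switches on late cell cycle genes, was at 11.72, 11.79 and 11.92 in control samples and at 10.76, 10.79 and 10.75 in treated samples. It fell by 1.04 (SE 0.059, adjusted p = 5.2e-06), more than any member. *Lin9*, a subunit of the MuvB core itself, rose by 0.28, from 9.47 to 9.75 (adjusted p = 0.0065). Another core subunit gene, *Lin54*, differed by −0.09 with overlapping groups and did not pass (adjusted p = 0.25).

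Among 15 genes of the anaphase-promoting complex and its relatives, 5 fell (33.3%), 1 rose (6.67%) and 9 did not pass. The share that fell was near the 25.3% of all genes tested and the 28.8% of genes with a mean of at least 7. *Fbxo5*, whose product EMI1 inhibits the complex in S and G2 phase, fell by 0.61, from 10.81 to 10.20 (adjusted p = 0.00013). The subunit gene *Anapc11* rose by 0.84, from 8.80 to 9.64 (adjusted p = 3.0e-05). Of 15 genes of cohesin and its regulators, 7 fell (46.7%), 4 rose and 4 did not pass. *Esco2*, which encodes an acetyltransferase that locks cohesin on replicated DNA, fell by 0.78 (adjusted p = 0.00016). *Wapl*, whose product removes cohesin from chromosomes, rose by 0.60, from 11.22 to 11.81 (adjusted p = 0.00062). The share of cohesin genes that rose, 26.7%, was near the 24.8% of all genes tested.

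In the wider centromere and kinetochore group 14 of 31 genes fell (45.2%) and none rose, with a median of −0.10. Over all genes tested, 25.3% fell and 24.8% rose. *Cenpm* was at 8.81, 9.10 and 9.23 in control samples and at 7.69, 7.64 and 7.81 in treated samples, and fell by 1.33 (SE 0.114, adjusted p = 4.9e-05). The highest difference was that of *Nsl1*, at 0.27, with overlapping groups (adjusted p = 0.27). Of 28 other spindle and centrosome genes, 14 fell (50%) and 2 rose (7.14%). *Haus7*, an augmin subunit gene, fell by 0.58 (adjusted p = 0.00044), and *Dlgap5*, whose product bundles spindle microtubules, rose by 0.42, from 11.12 to 11.54 (adjusted p = 0.0011). Of 8 other cytokinesis genes 1 fell (12.5%) and 2 rose (25%), a smaller share of falls than over all genes tested and a like share of rises. They ranged from *Sept9*, a septin gene (a fall of 0.40, adjusted p = 0.00039), to *Kif3b* (a rise of 0.40, adjusted p = 0.0030). Of 10 other genes of chromosome structure 6 fell (60%) and none rose. *Banf1* was lowest, with a fall of 0.47 (adjusted p = 0.00098), and *Ncapd3* highest, at 0.46 with overlapping groups (adjusted p = 0.16).

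**Figure D5:**
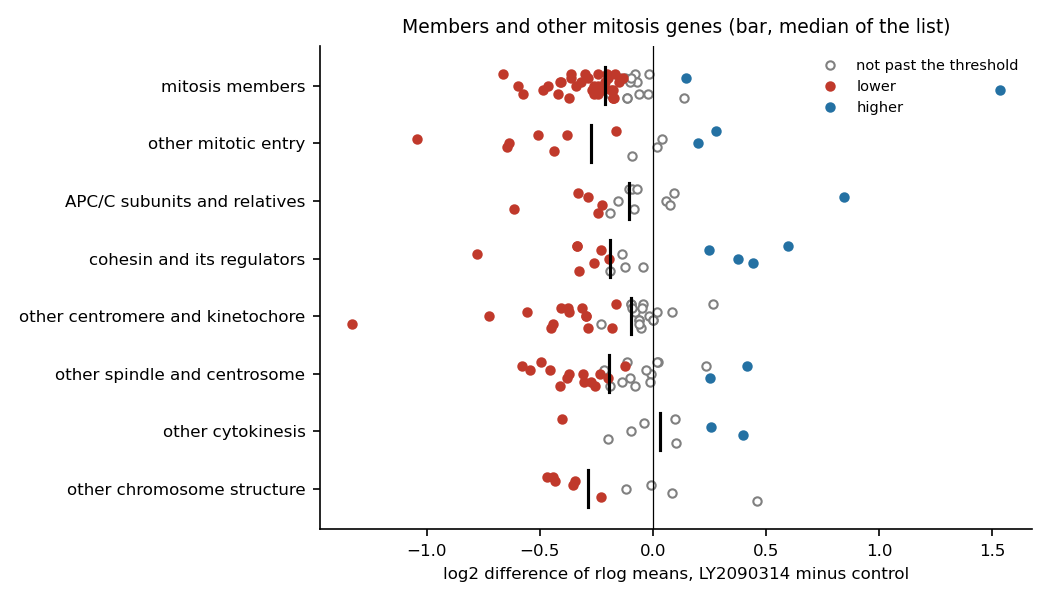
Log2 difference of the mean rlog values (x axis, LY2090314 minus control) for the members and for the other mitosis genes by list (y axis). Each point is a gene, red if it fell, blue if it rose and open if it did not pass an adjusted p of 0.05, and black bars are medians. The other lists hold 11 genes that rose out of 119 (9.24%), and the members hold 2 out of 51 (3.92%). Of all genes tested, 24.8% rose.

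DNA replication genes, which act in S phase before mitosis, were measured for comparison. Of 28 genes, 26 fell (92.9%, against 25.3% of all genes tested), none rose and 2 did not pass. Their median difference was −0.39, against −0.21 for the members. They ranged from *Lig1*, the DNA ligase gene of the lagging strand, which fell by 0.76 (adjusted p = 5.4e-05), to *Gins3*, at −0.08 (adjusted p = 0.54). The difference between these lists was not tested.

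The label of B cell precursors was checked against marker genes. All 10 B lineage markers had a mean of at least 3, but their average was 12.73 to 12.74 in control samples and 11.89 to 12.00 in treated samples, with 8 markers lower and none higher. Their median difference was −0.69, and 4 fell by more than 1. These were the recombinase gene *Rag1*, from 7.77 to 5.84, *Pax5*, the B cell commitment factor, from 14.05 to 12.51, and the surrogate light chain genes *Igll1*, from 13.10 to 11.68, and *Vpreb1*, from 12.73 to 11.47. No erythroid marker reached a mean of 3. Of 8 T lineage markers, *Lck* and *Thy1* did, and *Lck* rose by 0.95, from 11.41 to 12.36, while *Thy1* fell by 0.28, from 3.94 to 3.66. Of 8 myeloid markers, *Lyz2* and *Ly6g* did, and both rose, *Lyz2* from 5.80 to 6.34 and *Ly6g* from 3.48 to 6.45. The average of the myeloid list was 1.08 to 1.12 in control and 1.53 to 1.56 in treated samples, with 5 of its genes below 1. The part of these shifts in the lower mitosis genes was not tested.

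Exons of 17 members overlap an exon of another gene, on the other strand for 14 of them. The library kit keeps strand, but whether the counting used it is not given in the sources used here, so reads of such pairs may be shared.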

How the data were processed

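RNA of polyadenylated transcripts was sequenced in paired-end, strand-keeping libraries. The submitters' processing notes name FastQC 0.11.9, SAMtools 1.7, Picard 2.23.8, Salmon, DESeq2 1.30.1 and the build GRCm38. The authors deposited a single table of rlog values, on a log2 scale, in which counts are scaled for library size and low genes are drawn towards their mean. It has 41444 rows and 12 columns. Columns were assigned to groups by name, 3 to ERT2 control cells and 3 to ERT2 cells with LY2090314, and 6 were not used. Depth per sample is unknown, and no interval from counting error was given.

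Genes with a mean of at least 3 over the 6 samples (11536) were tested in R 4.3.3 with limma 3.58.1 (mean-variance trend, no covariate), and p-values were adjusted by Benjamini-Hochberg over all of them, with a threshold of 0.05. SE and 95% intervals come from this fit. The fit was also run on simulated data with independent samples and fewer changed genes, which cannot show whether the intervals hold for these data. The members and lists were chosen with earlier results of these data known, so no test over a list was made. Named with values in every sample were the lowest and highest member of each role and 11 fixed members, *Ccnb1*, *Cdk1*, *Plk1*, *Aurkb*, *Bub1b*, *Cdc20*, *Kif11*, *Cenpa*, *Foxm1*, *Mki67* and *Top2a*; *Cdc25c*, *Pttg1* and *Cenpf* were added after their values were seen. Every member that did not pass was named, and the lowest and highest gene of each other list of mitosis or replication genes. Marker genes given with values were chosen after their values were seen. *Spef1*, *Exosc9*, *Elovl1*, *Lcorl* and *Cdc23* were named for overlapping exons, and *Lin54* as another gene of the MuvB core. Symbols matched 41157 rows. Positions, overlaps and near copies (at least 300 bases at 90% identity, minimap2 2.31) came from GENCODE vM21 on GRCm38, and promoter windows from RefSeq on GRCm38.p6. Alternatives were a fit without the trend, other limits on the mean, median centring, quantile normalization, each sample left out, samples A and B averaged, stricter thresholds and a correction for GC content and transcript length (lowess, span 0.3).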

Additional observations from a re-analysis of the deposited data

How the results depend on the processing

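In 13 other fits, 23 of the 37 members past the threshold kept their call and direction, and 7 members passed in none. Between 25 and 36 members fell when single samples were left out, 28 with treated samples A and B averaged, 29 without the mean-variance trend, 35 with a mean of at least 5, 37 with median centring, 36 with quantile normalization and 38 after the correction for GC content and transcript length, which was added after seeing the data. In the same order, the share of all genes tested that fell was 20.8 to 26.8%, 21.4%, 24.5%, 27.8%, 27.2%, 29% and 26.2%. With no lower limit on the mean 24 fell (47.1%, against 5.09% of all genes in that fit). For that fit limma warned that most residual variances were 0. At an adjusted p under 0.01, 22 fell (43.1%, against 17.6% of all genes tested). With a limit of 1 on the log2 difference added to the threshold of 0.05, 0 members fell, against 1.86% of all genes tested. Of all genes, 693 passed with this limit and 5778 without it. The number that rose was 1 in place of 2 without the trend, with no lower limit, with median centring, with A and B averaged and at both stricter thresholds, and between 1 and 2 when single samples were left out; *Aurka* was the member lost, with an adjusted p between 0.00959 and 0.149 over the fits. The median difference of the members was −0.24 with median centring. This moved it from −0.21 by more than the spread of that median between replicates (SD 0.019). When single samples were left out, the median was between −0.23 and −0.21. The median of all genes moved by −0.026 with median centring, about as much as that of the members. It moved most with quantile normalization, by −0.049. Over the fits that left out single samples, the difference of *Kif20b* lay between −0.157 and 0.0927 and that of *Anln* between −0.0539 and 0.0148, so both changed sign.

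*Ccnb1* and *Nek2* passed with median centring and with the GC and length correction, *Ccnb1* and *Cdc25c* with quantile normalization, and *Cenpf* and *Smc2* with the GC and length correction. No paired analysis was possible because the columns carry no replicate numbers that match the sample titles. A planned search of protein sequences for a KEN motif was not run. No read counts were given, so depth is unknown, and rlog shrinkage understates differences of low genes.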
